A study of Mus musculus with 12 samples.

Results

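The genes of the mitochondrial ribosomal proteins were taken from a gene expression table of mouse kidney as all protein-coding rows whose symbol is Mrpl or Mrps followed by a digit. They were 78 of the 55487 genes in the table, 49 named for the large subunit (Mrpl) and 29 named for the small subunit (Mrps). A further 5 pseudogenes with such symbols were left out. Of the 78 genes, 77 passed the filter on low counts in every comparison, and Mrpl53 did not, with 0 counts in all 12 libraries.

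Mitochondria carry their own ribosome, the mitoribosome, which translates the few mRNAs that the mitochondrial genome encodes, all of them for subunits of the respiratory chain and ATP synthase. Its RNA comes from the mitochondrial genome, but each of its proteins is encoded in the nucleus, made in the cytosol and imported, so that the large and the small subunit are assembled from products of both genomes. Some of these proteins descend from bacterial ribosomal proteins and others occur only in mitochondria. Proximal tubule cells, which make up most of the renal cortex, are rich in mitochondria.

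RNA sequencing was carried out on kidney cortex of C57BL/6 mice in 4 groups of 3 libraries. Ctrl libraries came from mice labelled WT after sham surgery, which by the study's methods carry floxed alleles of ALR (Gfer, augmenter of liver regeneration) without Cre. PT-KO libraries came from sham mice labelled ALR knockdown, in which Ggt1-Cre, a Cre driven in the proximal tubule, acts on ALR flox/flox. Ctrl+I/R and PT-KO+I/R libraries came from the same 2 kinds of mice after bilateral ischemia/reperfusion, with 22 min of ischemia followed by 24 h of reperfusion. Nothing in the labels says whether the libraries of a group came from separate mice, so that the p-values measure the spread between these libraries.

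The libraries held 12165089 to 23123693 counts. A mitoribosomal gene had a median of 585 counts per library, and the lowest average apart from Mrpl23 and Mrpl53 was 138. Counts were scaled to library size and are given as CPM. Called means an adjusted p under 0.05 in edgeR's quasi-likelihood test with Benjamini-Hochberg adjustment over all genes tested. Gfer, the targeted gene, was at 12.7, 11.4 and 14.4 CPM in the Ctrl libraries, 9.97, 17.1 and 15 in PT-KO, 15.3, 20 and 17.6 in Ctrl+I/R and 21.6, 22.8 and 21.6 in PT-KO+I/R. In the libraries labelled PT-KO it overlapped Ctrl (log2 fold change 0.13 ± 0.20 SE, adjusted p = 0.761), and its PT-KO+I/R level exceeded that of PT-KO (0.64 ± 0.18 SE, adjusted p = 0.00888). Counts over the whole gene do not show which exons were read, so they do not check the deletion. The study itself reports lower ALR in kidneys of PT-KO mice than in those of controls. Ctrl libraries 1 and 2 carried 22402 and 19755 counts of Xist and 0 counts of 4 Y-linked genes, while the other 10 libraries had at most 11 counts of Xist and carried Y-linked transcripts. Comparisons with the Ctrl group therefore also compare sexes, and the values the results turn on are given with and without those 2 libraries. The 7 markers of the proximal tubule summed to 12005 to 14162 CPM in the 6 sham libraries, to 3361 to 8120 in Ctrl+I/R and to 2154 to 2741 in PT-KO+I/R. The 4 markers of injured tubule, led by Havcr1 and Lcn2, summed to 8.67 to 22.3 CPM in the sham libraries, to 567 to 2652 in Ctrl+I/R and to 4809 to 6324 in PT-KO+I/R.

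The levels of the mitoribosomal genes differed widely from one to another. On the scale of CPM per kilobase of the principal coding transcript, averaged over the 12 libraries, the median was 26.5 for the large and 22.1 for the small subunit. The highest level was that of Mrps21, a short small-subunit protein of bacterial descent, at 128 CPM per kb. Mrpl42, a protein found only in mitochondria, followed at 107, Mrpl12, a stalk protein that also binds the mitochondrial RNA polymerase, at 90.4, and Mrpl20 at 81.9. In the small subunit Mrps18a was next at 47.8 and Mrps34 at 42.9. The lowest levels in the small subunit were 4.48 for Mrps25, 7.43 for Mrps26 and 8.96 for Mrps17, and in the large subunit 2.15 for Mrpl23 and 4.48 for Mrpl19. Mrpl53 was at 0 in every library, and a count of 0 allows up to 3 counts per library. Of its exon bases, 88.0% lie in Gm42688 on the same strand, and Gm42688 had no more than 27 counts.

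The summed level of all members differed little between the groups. The sums in the 3 Ctrl libraries were 2811, 2805 and 3202 CPM, in PT-KO 2978, 3310 and 2943, in Ctrl+I/R 2797, 2826 and 3079, and for PT-KO+I/R 2867, 2697 and 2709. The PT-KO+I/R libraries lay below the PT-KO libraries without overlap, while every other pair of groups overlapped. Ctrl library 3, the only Ctrl library without Xist, lay above every Ctrl+I/R and PT-KO+I/R library. The means were 2939 ± 228, 3077 ± 202, 2901 ± 155 and 2757 ± 95 CPM (SD, n = 3) in that order, and a comparison of 3 libraries with 3 cannot reach an exact permutation p below 0.1. The order depended on the scaling. When libraries were scaled by total counts, the sums were 2859, 2948 and 2774 CPM in PT-KO, 2927, 2959 and 3033 in Ctrl, 3059, 3187 and 3371 in Ctrl+I/R, and 2754, 2620 and 2523 in PT-KO+I/R, which was then below every other library. The ratio of both subunits varied little. The large subunit summed to 2.01, 2.04 and 2.07 times the small subunit in Ctrl, to 2.02, 2.03 and 2.01 times in PT-KO, to 2.07, 2.04 and 2.00 times in Ctrl+I/R and to 2.00, 1.99 and 1.90 times in PT-KO+I/R. The 3 values of PT-KO+I/R were the lowest of the 12, by a margin smaller than the spread within that group, and were given no test. By the medians over members in place of the sums, PT-KO+I/R did not stand below PT-KO. The summed level of 75 nuclear-encoded subunits of the respiratory chain and ATP synthase was 19668 to 21929 CPM in the 6 sham libraries and 11890 to 16750 in the 6 I/R libraries, without overlap. That of 76 cytosolic ribosomal proteins was 7432 to 8687 CPM in sham and 10498 to 12199 in I/R libraries, also without overlap.

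**Figure D1:**
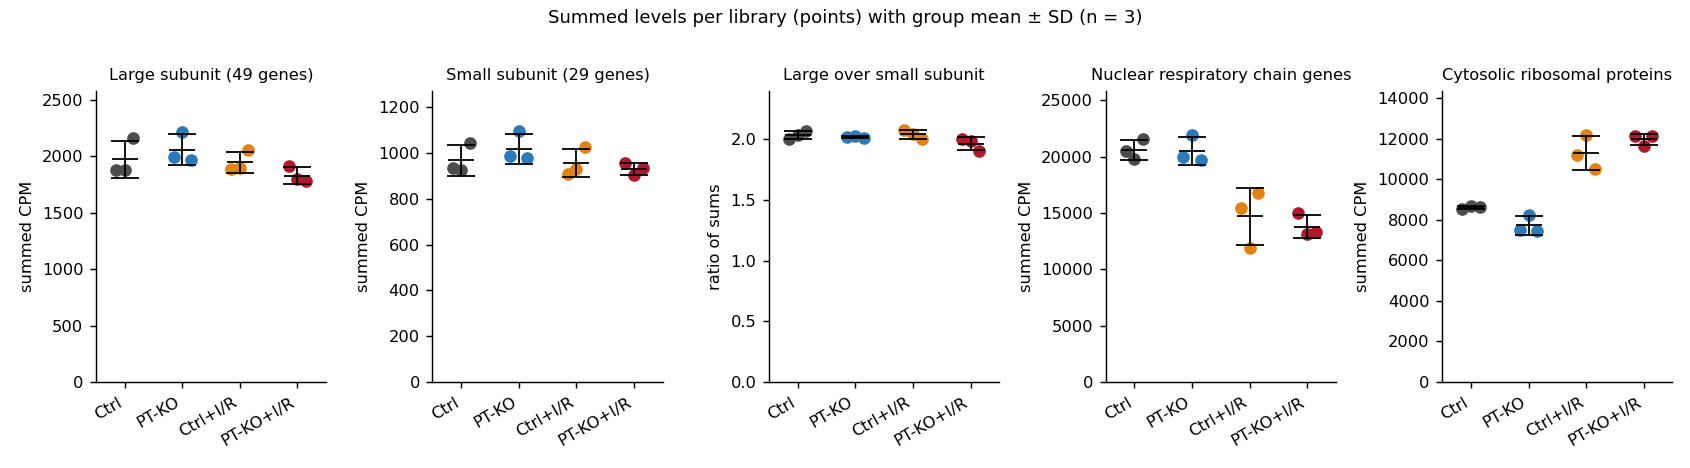
Summed CPM per library (points) with the group mean and SD (n = 3) for the large subunit, the small subunit, nuclear respiratory chain genes and cytosolic ribosomal proteins, and the ratio of large to small subunit sums, each axis starting at 0. The sums of both subunits differ little between the 4 groups and their ratio lies between 1.90 and 2.07, while the respiratory chain sums are lower and the cytosolic ribosome sums higher in the I/R libraries.

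The first comparison asked what I/R did in control kidneys. Of the 77 members, 4 rose and 0 fell in Ctrl+I/R relative to Ctrl, where 19.4% of 15567 genes were called, 11.4% higher and 7.97% lower. The median log2 fold change of the members was -0.02, with -0.01 for all genes tested. An unadjusted p under 0.05 was reached by 11 members and by 5907 of all genes, and DESeq2 called 1 member lower. The 4 were Mrpl33, Mrps18b, Mrpl52 and Mrpl19. Among cell type markers, 4 of 4 of injured tubule, 5 of 8 of leukocytes and 2 of 2 of dividing cells were higher. Lower were 3 of 7 of the proximal tubule, 2 of 2 of the distal tubule and 2 of 4 of the collecting duct. Of podocytes 2 of 2 and of endothelium 1 of 3 were lower too. The part of these shifts in the values of the members was not tested.

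Mrpl33, a short large-subunit protein with a bacterial counterpart, was at 7.09, 6.67 and 5.71 CPM in Ctrl and at 14.4, 16.5 and 9.49 CPM in Ctrl+I/R (log2 fold change 1.06 ± 0.22 SE, adjusted p = 0.0226). Every Ctrl+I/R library was above every Ctrl library, and library 4 was the lowest of the 3. The gene model of Mrpl33 holds 7326 exon bases in coding and noncoding transcripts, against 478 in its coding transcript, so its counts cannot be assigned to the coding transcript alone. Mrps18b, a small-subunit protein that is one of 3 relatives of the bacterial protein S18, was at 17.1, 16.1 and 24.8 CPM in Ctrl and at 35.3, 42.4 and 32.6 CPM in Ctrl+I/R (log2 fold change 0.93 ± 0.19 SE, adjusted p = 0.0204). Its lowest values were those of the 2 Ctrl libraries with Xist. Mrpl52, a large-subunit protein found only in mitochondria, was at 20, 19.8 and 19.6 CPM in Ctrl and at 33.4, 33.6 and 24 CPM in Ctrl+I/R (log2 fold change 0.62 ± 0.14 SE, adjusted p = 0.0285). The Ctrl libraries lay close together and library 4 was again the lowest after I/R. By the marker sums, library 4 was the highest of Ctrl+I/R for proximal tubule (8120 CPM) and the lowest for injured tubule (567 CPM). Whether this bears on the levels of the members was not tested. Mrpl19 showed a log2 fold change of 0.38 ± 0.10 SE (adjusted p = 0.0349), and 36% of its exon bases lie in Gcfc2 on the opposite strand. These calls rested on the full set of libraries. With Ctrl library 1, Ctrl library 2 or Ctrl+I/R library 1 left out, 0 members were called higher, and with Ctrl library 3 or Ctrl+I/R library 2 left out it was 1. With Ctrl+I/R library 4 left out, 3 were higher and 4 lower. Without the 2 libraries that carry Xist, a single Ctrl library remained. That fit covered the remaining libraries of all 4 groups, so the spread was taken from the other groups together. Of the 4 members Mrpl33 was then still called, at a log2 fold change of 1.22. Mrpl52 was at 0.61 and Mrpl19 at 0.35, close to their values with all libraries, and Mrps18b was at 0.55, and none of the 3 was called. The median of the members was -0.15. With sex as a covariate, Mrpl33 was called higher at 1.24 and 2 members were called lower.

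The second comparison asked what the knockout did without I/R. Of 77 members, 0 were called in PT-KO relative to Ctrl by edgeR, as were 0% of 15291 genes, 0% higher and 0% lower. An unadjusted p under 0.05 was reached by 9 members and by 2573 of all genes, and DESeq2 called 0 members. The members had a median log2 fold change of 0.05, and 52 of 77 lay above 0. Their median was -0.08 without the 2 Ctrl libraries that carry Xist and -0.07 when libraries were scaled by total counts, which set the median of all genes at -0.135. Mrps18b was at 22.4, 29.9 and 25.5 CPM in PT-KO, which overlapped Ctrl (log2 fold change 0.42 ± 0.18 SE, adjusted p = 0.291). Mrpl33, at 7.07, 7.59 and 6.26 CPM, overlapped Ctrl as well (0.10 ± 0.16 SE, adjusted p = 0.764). The largest change of a member was that of Mrpl23 (-1.09 ± 0.30 SE, adjusted p = 0.207), which had at most 46 counts in a library. It was at 2.11, 2.81 and 1.66 CPM in Ctrl and at 1.07, 0.92 and 1.10 CPM in PT-KO, without overlap. Without the libraries with Xist, which leaves a single Ctrl library, Mrps18b was at 0.06 ± 0.19 SE and Mrpl33 at 0.28 ± 0.28 SE (adjusted p = 1 for both). Of the members 0 were then called and 0 had an unadjusted p under 0.05, against 576 of 17616 genes. Without Ctrl library 3, whose omission leaves the 2 libraries with Xist, 2 members were called higher and 1 lower.

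The third comparison asked what I/R did in the knockout, and its 6 libraries all carry Y-linked transcripts. In PT-KO+I/R relative to PT-KO, 8 members rose and 27 fell, together 45.5% of the 77, where 65.5% of 15155 genes were called, 32.9% higher and 32.7% lower. In the large subunit 3 rose and 17 fell of 48, and in the small subunit 5 rose and 10 fell of 29. The median log2 fold change was -0.12 for the large subunit, -0.15 for the small subunit and 0.01 for all genes. With Mrps30 and Mrps18a counted with the large subunit, where the assembled ribosome holds them, and Mrps36 left out, 4 rose and 17 fell of 50 large and 4 rose and 9 fell of 26 small subunit genes. A change over 2-fold was shown by 6 members. When libraries were scaled by total counts, 11 rose and 22 fell, with a median of -0.09 for the members and 0.06 for all genes.

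Mrpl33 was at 25.5, 27.7 and 29.8 CPM in PT-KO+I/R, 3.95 times its PT-KO level (log2 fold change 1.98 ± 0.13 SE, adjusted p = 7.89e-07). Mrps18b was at 75.6, 69.1 and 73.2 CPM (1.48 ± 0.11 SE, adjusted p = 1.89e-06). Mrpl52 was at 22.8, 19.6 and 19.1 CPM in PT-KO libraries, rising to 48.6, 43.4 and 40.9 CPM in PT-KO+I/R (1.10 ± 0.11 SE, adjusted p = 1.52e-05). For these 3 genes the PT-KO+I/R libraries lay above the libraries of every other group. Mrps18c, the relative that takes the place of S18 in the small subunit, was at 7, 7.11 and 7.06 CPM in PT-KO libraries, against 15.2, 8.32 and 10.5 CPM in PT-KO+I/R (0.66 ± 0.21 SE, adjusted p = 0.02). Library 2 stood above the other two, and the call was lost without that library, without PT-KO library 1 or without PT-KO library 4. Mrps18a, the relative that sits in the large subunit despite its symbol, was at 43.5, 49.3 and 45 CPM in PT-KO libraries, against 41.9, 44.2 and 41.9 CPM in PT-KO+I/R (-0.11 ± 0.09 SE, adjusted p = 0.271). The groups overlapped, so the 3 relatives of S18 did not share a change that passed the test. Mrps30, which is likewise a large-subunit protein in the assembled ribosome, was at 26.1, 29.8 and 28.4 CPM in PT-KO libraries, against 45.4, 35.8 and 42.7 CPM in PT-KO+I/R (0.54 ± 0.11 SE, adjusted p = 0.00171). Mrpl37, its relative in the large subunit, had a log2 fold change of -0.15 ± 0.09 SE (adjusted p = 0.157). The other members that rose were Mrps6, Mrps10 and Mrpl17, at 0.47, 0.37 and 0.29 on the log2 scale. Mrps6 shares exon sequence with Slc5a3, an osmolyte transporter with a log2 fold change of 0.40 (adjusted p = 0.0940).

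Mrps36 fell the most. It was at 28.4, 33.7 and 25.1 CPM in PT-KO libraries, falling to 13.9, 11.7 and 10.7 CPM in PT-KO+I/R, 0.413 times the PT-KO level (log2 fold change -1.28 ± 0.15 SE, adjusted p = 3.52e-05). Although named as a ribosomal protein, its product is known as an adaptor of the 2-oxoglutarate dehydrogenase complex of the citric acid cycle. Its 3 pseudogenes held at most 41 counts in a library. Mrps21, the member with the highest level per length, was at 78.1, 87.3 and 71.7 CPM in PT-KO libraries, falling to 35.5, 38.9 and 37.9 CPM in PT-KO+I/R (-1.08 ± 0.09 SE, adjusted p = 5.63e-06). Mrpl42, the second highest, was at 80.5, 91.9 and 80.6 CPM, falling to 40, 42.9 and 38.8 CPM (-1.06 ± 0.09 SE, adjusted p = 4.1e-06). The groups were far apart for both genes. Mrpl28 (-0.66) and Mrps35 (-0.62), and with them Mrps5 (-0.61), Mrpl49 (-0.60), Mrpl12 (-0.57) and Mrps15 (-0.57), formed the next tier of log2 fold changes. Mrpl12 was at 131, 158 and 128 CPM in PT-KO libraries, falling to 100.5, 92 and 89.4 CPM in PT-KO+I/R. Its partner Polrmt, the mitochondrial RNA polymerase, was lower as well (-0.52 ± 0.12 SE, adjusted p = 0.0034). Mrpl3 (-0.34 ± 0.08 SE, adjusted p = 0.00485) and Mrps16 (-0.32 ± 0.12 SE, adjusted p = 0.0404), whose mutation causes respiratory chain deficiency in humans, also fell, as did Mrpl58, a peptidyl-tRNA hydrolase that rescues stalled ribosomes (-0.28 ± 0.11 SE, adjusted p = 0.0428). The calls of Mrps16 and Mrpl58 were each lost in 5 of 6 omissions of a single library. Mrps25 fell too (-0.37 ± 0.14 SE, adjusted p = 0.0445), although its libraries overlapped between the groups, and the other 14 members that fell lay between -0.54 and -0.27. Mrps12, at the decoding centre, had a log2 fold change of -0.21 ± 0.16 SE (adjusted p = 0.269), Mrps22 of -0.09 ± 0.12 SE (adjusted p = 0.548) and Mrpl11, at the base of the stalk, of -0.10 ± 0.10 SE (adjusted p = 0.385). In this comparison the proximal tubule marker sum was 12235 to 14162 CPM in PT-KO and 2154 to 2741 CPM in PT-KO+I/R, with 7 of 7 markers lower, and 4 of 4 markers of injured tubule were higher. Markers of other nephron segments were lower as well, with 2 of 2 for the thick limb, 2 of 2 for the distal tubule and 3 of 4 for the collecting duct, as were 2 of 2 markers of dividing cells and 1 of 2 of podocytes. Of the markers of endothelium 2 of 3 were higher, and of 6 tested markers of leukocytes 3 were higher and 3 lower. In whole tissue, fewer cells of a type and less RNA per cell cannot be told apart, and the part of these shifts in the values of the members was not tested.

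The fourth comparison asked how the knockout differed from the control after I/R, and its 6 libraries all carry Y-linked transcripts too. In PT-KO+I/R relative to Ctrl+I/R, 6 members were higher and 14 lower, 26% of the 77, where 46.9% of 15281 genes were called, 22.5% higher and 24.4% lower. In the large subunit 2 were higher and 8 lower, and in the small subunit 4 were higher and 6 lower. The median log2 fold change was -0.08 for the large and -0.14 for the small subunit. When libraries were scaled by total counts, 2 were higher and 34 lower. That scaling set the median of all genes at -0.21 and that of the members at -0.30, against a median of -0.09 for the members with TMM.

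The same 3 genes led the rise. Mrpl33 had a log2 fold change of 1.03 ± 0.19 SE (adjusted p = 0.00406), Mrps18b of 0.98 ± 0.11 SE (adjusted p = 0.000617) and Mrpl52 of 0.54 ± 0.15 SE (adjusted p = 0.0183). Next came Mrps30, at 28.5, 33.3 and 29.6 CPM in Ctrl+I/R (0.43 ± 0.12 SE, adjusted p = 0.0198), and Mrps9, a small-subunit protein of bacterial descent (0.38 ± 0.11 SE, adjusted p = 0.0215). Mrps9 was at 35.3, 31.9 and 37.6 CPM in Ctrl+I/R and at 45.3, 43.4 and 48.4 CPM in PT-KO+I/R, without overlap. Mrps23 completed the 6, at 0.35 ± 0.10 SE (adjusted p = 0.0256). With total counts, Mrpl33 and Mrps18b kept their calls and the other 4 lost them.

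Among the lower members, Mrps36 was at 23, 20.3 and 25.4 CPM in Ctrl+I/R, and its PT-KO+I/R level was 0.524 times as high (log2 fold change -0.93 ± 0.15 SE, adjusted p = 0.00224). Mrpl42 was at 74.5, 61.9 and 88.7 CPM in Ctrl+I/R (-0.89 ± 0.14 SE, adjusted p = 0.0021) and Mrps21 at 57.5, 50.4 and 64.2 CPM (-0.62 ± 0.12 SE, adjusted p = 0.00419). Ctrl+I/R library 2 was the lowest of its group for all 3 genes and still lay above every PT-KO+I/R library. By the marker sums, library 2 was also the lowest of Ctrl+I/R for proximal tubule (3361 CPM) and the highest for injured tubule (2652 CPM). Mrps15, which binds early in small-subunit assembly in bacteria, was at 29.3, 28.7 and 31.2 CPM in Ctrl+I/R and at 21, 20.8 and 17.9 CPM in PT-KO+I/R (-0.59 ± 0.11 SE, adjusted p = 0.00443). Mrps25 was at 29.7, 34.6 and 35.5 CPM in Ctrl+I/R and at 24.3, 17.9 and 18.6 CPM in PT-KO+I/R (-0.72 ± 0.15 SE, adjusted p = 0.00525). Of the exon bases of Mrps25, 69.8% lie in Nr2c2 on the opposite strand, and Nr2c2 was higher in the same comparison (0.54, adjusted p = 0.00288). Whether the counting used strand is not given in the sources used here, so reads from the 2 genes may not have been told apart. In all, 11 members have 10% or more of their exon bases in another gene with 100 or more counts. These 5 members were called without each single library in turn, as were Mrpl33 and Mrps18b. Mrps16 (-0.47 ± 0.14 SE, adjusted p = 0.0249) and Mrps30 lost their calls in 4 of 6 omissions each, both of them with Ctrl+I/R library 1 or 4 or PT-KO+I/R library 4 left out. The other lower members were Mrpl49, Mrpl36, Mrpl24, Mrpl28, Mrpl13, Mrpl21, Mrpl39 and Mrps2, at -0.51 to -0.31. Mrps9 lost its call in 2 of 6 and Mrpl52 in 1 of 6. Over all members, 3 were higher and 9 lower with Ctrl+I/R library 1 left out, and 5 and 7 with its library 4 left out. For PT-KO+I/R libraries 2, 3 and 4 in turn the numbers were 3 and 10, 6 and 7, and 3 and 6. The proximal tubule marker sum was 3361 to 8120 CPM in Ctrl+I/R against 2154 to 2741 CPM in PT-KO+I/R, with 4 of 7 markers lower, and 3 of 4 markers of injured tubule were higher and 1 lower. The 2 markers of dividing cells summed to 65.7 to 82.6 CPM in Ctrl+I/R and to 3.87 to 6.93 CPM in PT-KO+I/R. Of 6 tested markers of leukocytes 3 were higher and 3 lower, and of endothelium 2 of 3 were higher. For the thick limb, the distal tubule and podocytes 1 of 2 markers each was lower. The part of these differences in the values of the members was not tested.

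**Figure D2:**
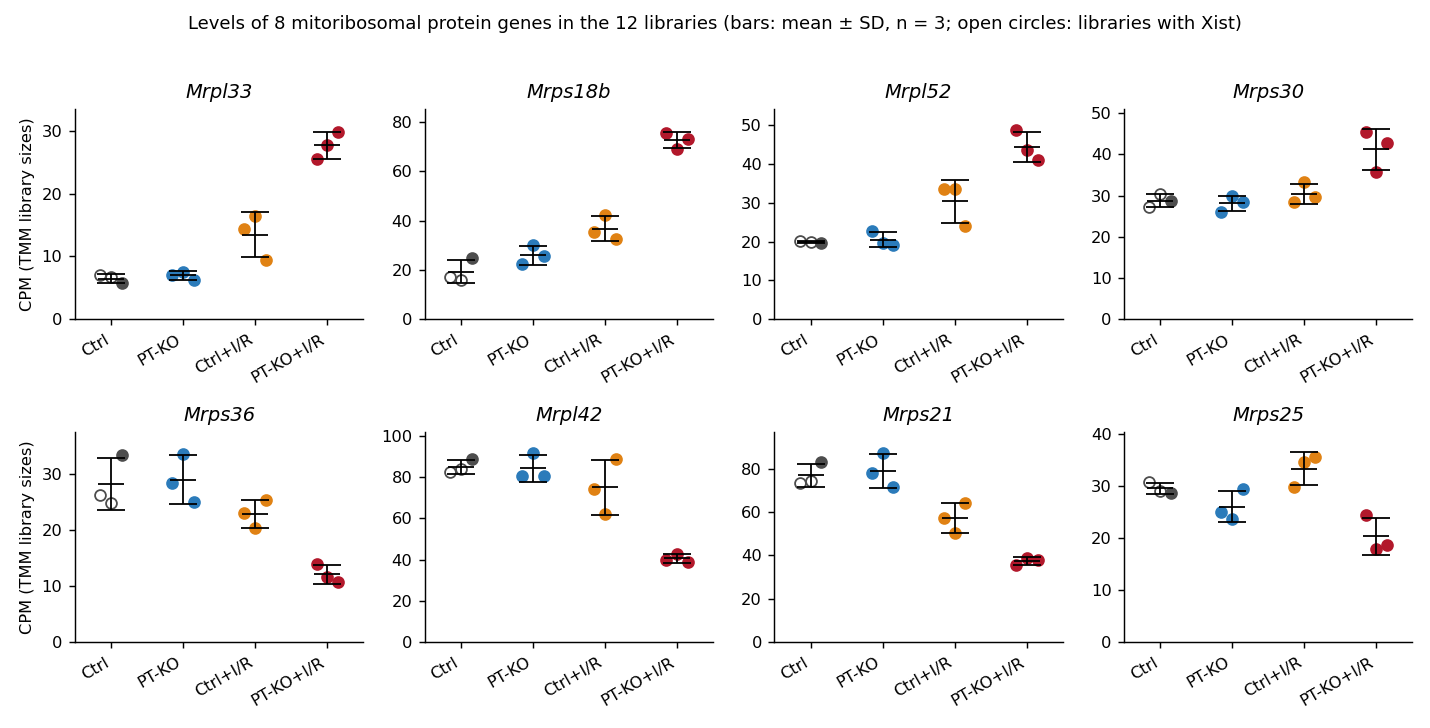
CPM of 4 members that rose and 4 that fell with I/R in the knockout, for each library (points) with the group mean and SD (n = 3), each axis starting at 0 and open circles marking the 2 Ctrl libraries with Xist. The 3 PT-KO+I/R libraries lie above all others for Mrpl33 (25.5 to 29.8 CPM), Mrps18b, Mrpl52 and Mrps30, and below all others for Mrps36 (10.7 to 13.9 CPM), Mrpl42 and Mrps21, while for Mrps25 one of them reaches into the PT-KO range.

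**Figure D3:**
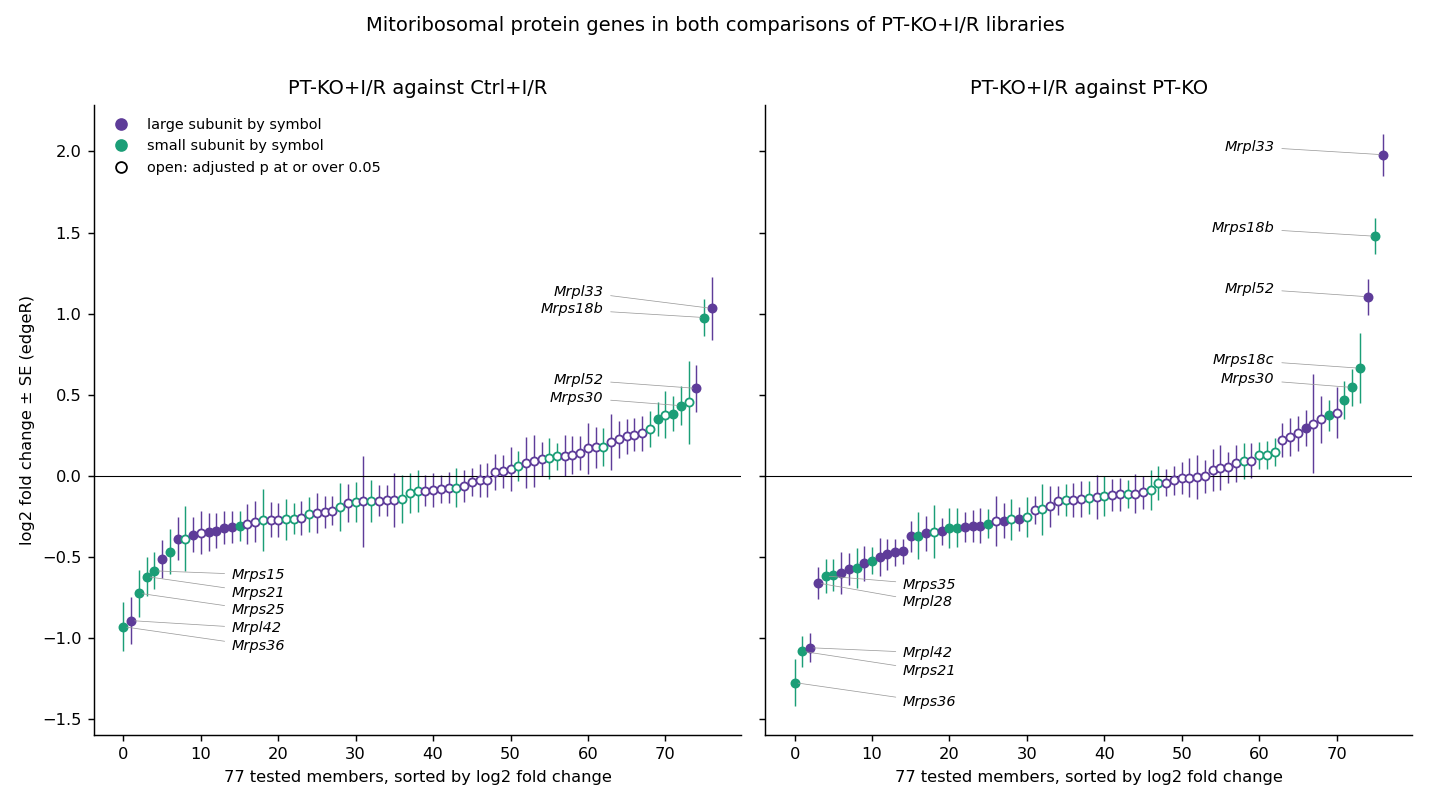
Log2 fold change with its SE for the 77 tested members, sorted, for PT-KO+I/R libraries relative to both other groups, coloured by subunit, with filled points for adjusted p under 0.05. Most members lie near 0 in both panels, with Mrpl33, Mrps18b and Mrpl52 at the upper end. At the lower end are Mrps36 and Mrpl42, with Mrps25 relative to Ctrl+I/R and Mrps21 relative to PT-KO.

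The comparisons of PT-KO+I/R with PT-KO and with Ctrl+I/R share the PT-KO+I/R libraries, so their calls are not independent. In each comparison with calls, and in the interaction, a smaller share of the members than of all genes was called.

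Whether I/R acted differently in the mice labelled knockout and in the controls was tested as the interaction of both factors in a fit to all 12 libraries. Of the members, 2 were called with a greater and 8 with a lesser log2 change in the knockout, where 30.6% of 16168 genes were called, 14.3% higher and 16.4% lower. When libraries were scaled by total counts, 1 was called higher and 19 lower, with the median of all genes at -0.104. Mrpl33 gained 0.93 ± 0.26 SE on the log2 scale (adjusted p = 0.018) and Mrps30 gained 0.47 ± 0.15 SE (adjusted p = 0.0337). Mrps36 had an interaction of -0.97 ± 0.22 SE (adjusted p = 0.00632), Mrpl42 of -0.88 ± 0.17 SE (adjusted p = 0.00259) and Mrps21 of -0.65 ± 0.15 SE (adjusted p = 0.00715). The others were Mrps25, Mrps7, Mrps15, Mrpl39 and Mrpl44, at -0.53 to -0.37. Because 2 of the 3 Ctrl libraries differ in sex from the rest, the interaction and sex cannot be told apart in this fit. Without those 2 libraries, which leaves a single Ctrl library, Mrps18b was at 0.91 and Mrpl42 at -0.82. The median of the members was then -0.05, as was that of all genes, against -0.14 and -0.02 with all 12 libraries. Mrps18b was not called with all 12 libraries (0.55 ± 0.23 SE, adjusted p = 0.0846). Without Ctrl library 3, 15 members were called lower and 1 higher. Without Ctrl+I/R library 2, 4 were higher and 11 lower. Leaving out any other library gave 1 or 2 higher and 4 to 9 lower.

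The 2 comparisons of I/R with sham share no library. Over the 77 members, 52 (67.5%) had the same sign in both, as did 73% of the 14802 genes tested in both. The log2 fold changes had a Pearson correlation of 0.79 and a Spearman correlation of 0.63 over the members, and of 0.65 and 0.62 over all genes, given as a description since the genes share libraries and depth within each comparison. Mrpl33, Mrps18b and Mrpl52 rose in both, 3.9% of the members, where 14.9% of all genes were called in both with the same direction. Without the 2 Ctrl libraries with Xist, 61 members (79.2%) and 72.5% of 15155 genes had the same sign, at correlations of 0.81 and 0.62 over the members and 0.63 and 0.60 over all genes.

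**Figure D4:**
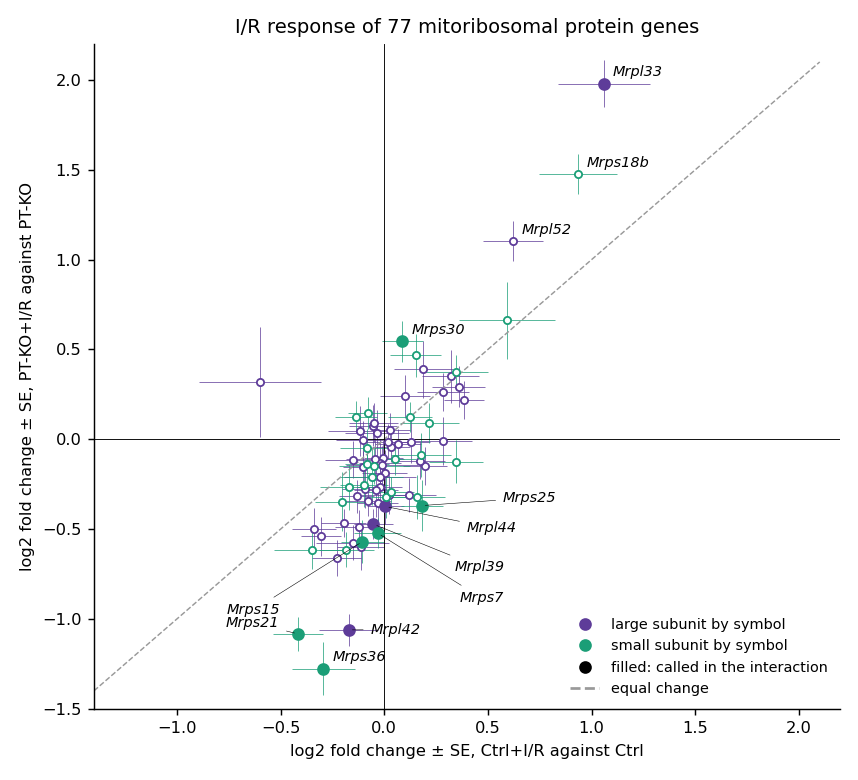
Log2 fold change with SE after I/R in the knockout (vertical axis) against that in the control (horizontal axis) for 77 members, with filled points for members called in the interaction over all 12 libraries and a dashed line of equal change. Mrpl33 (1.06 and 1.98), Mrps18b and Mrpl52 lie above the line at the upper right, and Mrps36 (-0.29 and -1.28), Mrpl42 and Mrps21 below it.

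The 5 ribosomal proteins that carry other names were also uneven. Ptcd3, an RNA-binding small-subunit protein, was at 55, 56.4 and 54.7 CPM in PT-KO libraries, falling to 21.9, 23.9 and 24.6 CPM in PT-KO+I/R (log2 fold change -1.24 ± 0.09 SE, adjusted p = 1.38e-06). In Ctrl+I/R it was at 43.5, 41.6 and 51.2 CPM, above every PT-KO+I/R library (-0.96 ± 0.12 SE, adjusted p = 0.000768). Dap3, the GTP-binding protein of the small subunit, was lower in PT-KO+I/R than in PT-KO (-0.46 ± 0.08 SE, adjusted p = 0.000519) and than in Ctrl+I/R (-0.32 ± 0.09 SE, adjusted p = 0.0259). Chchd1 was higher than in PT-KO (0.28 ± 0.10 SE, adjusted p = 0.0365). Aurkaip1 (-0.04 ± 0.10 SE, adjusted p = 0.717) and Gadd45gip1 (0.09 ± 0.10 SE, adjusted p = 0.456) did not pass the test against PT-KO.

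Other genes of mitochondrial gene expression were set beside the members by count and median. After I/R in the knockout, where 32.9% of all genes were higher and 32.7% lower, 11 of 16 factors of mitochondrial translation were lower and 0 higher, with a median log2 fold change of -0.72, where the members had -0.14. They included the elongation factors Tufm (-1.34 ± 0.10 SE) and Gfm1 (-0.69 ± 0.09 SE) and the recycling factor Gfm2 (-1.61 ± 0.13 SE). Of 27 assembly factors of the mitoribosome, 5 were higher and 10 lower, with a median of -0.13 that was close to that of the members. The helicase Ddx28, which acts on the large subunit, had 1.21 ± 0.14 SE, and Tfb1m, which methylates the small ribosomal RNA, had -1.26 ± 0.25 SE. Of 74 nuclear subunits of the respiratory chain and ATP synthase tested, 65 were lower and 1 higher, at a median of -0.56, and of 75 cytosolic ribosomal proteins 64 were higher and 1 lower, at a median of 0.65. Relative to Ctrl+I/R those medians were smaller, at -0.11 and 0.07. The translation factors were at -0.36 with 7 of 16 lower, where 24.4% of all genes were lower. After I/R in the controls, 11.4% of all genes were higher and 7.97% lower. There 11 of 74 respiratory chain genes were lower at a median of -0.43, and 34 of 75 cytosolic ribosomal proteins were higher at 0.43. Without the 2 Ctrl libraries with Xist, which leaves a single Ctrl library, the medians were -0.57 for the respiratory chain genes and 0.39 for the cytosolic ribosomal proteins.

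Of 13 tested genes of mitochondrial DNA replication, transcription and RNA processing, 8 were lower and 1 higher after I/R in the knockout. Tfam, which packages mitochondrial DNA, had a log2 fold change of -0.31 ± 0.11 SE (adjusted p = 0.0363). Among 9 regulators of mitochondrial biogenesis, 4 were higher and 3 lower, and Ppargc1a, a coactivator of nuclear genes for mitochondrial proteins, was at 114, 98.2 and 116 CPM in PT-KO libraries, falling to 39.4, 33.6 and 37.3 CPM in PT-KO+I/R (-1.58 ± 0.10 SE, adjusted p = 7.52e-07). It was lower after I/R in the controls too, at 132, 150.3 and 116 CPM in Ctrl and 63.1, 44.9 and 87.7 CPM in Ctrl+I/R (-1.02 ± 0.24 SE, adjusted p = 0.0284). Without the 2 Ctrl libraries with Xist that value was -0.86 ± 0.27 SE (adjusted p = 0.0736), which did not pass the test. Of the 13 mRNAs of the mitochondrial genome, which the mitoribosome translates, 1 was higher and 0 lower after I/R in the knockout, and 4 were higher and 0 lower relative to Ctrl+I/R. Neither of its 2 ribosomal RNAs was called in either comparison. How poly(A) or ribosomal RNA was handled in library construction is not given in the sources used here, so levels of these transcripts were not compared with nuclear ones.

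**Figure D5:**
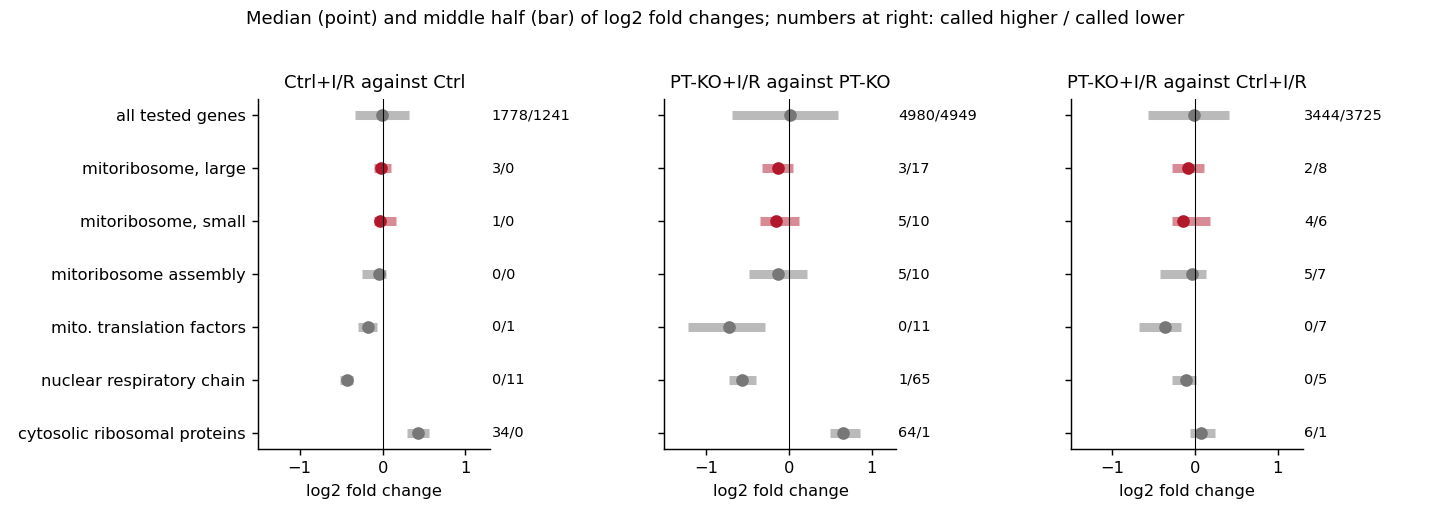
Median (point) and middle 50% (bar) of log2 fold changes for all tested genes, both subunits (red) and 4 related gene lists in the comparisons, with the numbers called higher and lower at the right of each row. The bars of both subunits straddle 0 in each panel, while nuclear respiratory chain genes lie to the left and cytosolic ribosomal proteins to the right of 0 in both I/R comparisons.

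The members lie on 17 chromosomes, with no more than 11 on one. On GRCm38 the genes that rose most were at chr5:31596935-31664384 (Mrpl33), chr17:35910379-35916389 (Mrps18b) and chr14:54426909-54429756 (Mrpl52), and those that fell most at chr13:100735955-100744659 (Mrps36), chr3:95862634-95871519 (Mrps21) and chr10:95480805-95501940 (Mrpl42). Of the 78, 25 (32.1%) have another gene starting within 500 bases on the opposite strand, against 8.89% of 21897 protein-coding genes. Mrpl46 and Mrps11 are such a pair, and neither was called in a comparison. Mrpl36 lies 29 bases from Ndufs6, Mrpl49 59 bases from Fau and Mrps18b 45 bases from Ppp1r10, by their annotated starts. Promoters of 69 members, taken as 250 bases before to 50 after the start, were matched by symbol in RefSeq on GRCm38.p6. Promoters of Mrpl13, Mrpl15, Mrpl19, Mrpl38, Mrpl4, Mrpl54, Mrps28, Mrps34 and Mrps35 were not matched. Both strands were searched for 4 short words, which are core letters of sites for known regulators of mitochondrial or ribosomal genes. The ETS word CCGGAAG, which the regulator GABP binds, was found in 34.8% of the 69 and in 12.3% of 16513 promoters of protein-coding genes. The YY1 word AAGATGG was in 18.8% and 6.43%, the NRF1 word GCGCATG in 11.6% and 5.03%, and the E-box CACGTG in 7.25% and 8.08%. Of 10 matched members called higher in a comparison with PT-KO+I/R, 6 held the ETS word, as did 5 of 26 called lower. The NRF1 word was held by 3 of the 10 and 2 of the 26, the YY1 word by 1 and 4, and the E-box by 1 and 1. These groups were chosen by their calls and were given no test, and a match of letters shows no binding.

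Of the 3 members with the largest rise and the 3 with the largest fall between both I/R groups, 5 promoters are shown for their differing content of those words. The 150 bases before each RefSeq start (GRCm38.p6) are given 5′ to 3′ on the strand of the gene, with a searched word in capitals where it lies wholly within the stretch. The sixth, Mrps18b, is left out because Ppp1r10 starts within it.
Mrpl33, chr5:31613801-31613950, plus strand: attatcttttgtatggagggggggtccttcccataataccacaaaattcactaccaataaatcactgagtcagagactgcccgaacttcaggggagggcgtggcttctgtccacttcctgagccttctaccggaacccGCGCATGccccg
Mrpl52, chr14:54426759-54426908, plus strand: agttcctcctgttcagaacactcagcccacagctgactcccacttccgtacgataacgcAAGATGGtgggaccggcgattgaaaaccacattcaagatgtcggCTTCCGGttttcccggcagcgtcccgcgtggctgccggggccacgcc
Mrps36, chr13:100744660-100744809, minus strand: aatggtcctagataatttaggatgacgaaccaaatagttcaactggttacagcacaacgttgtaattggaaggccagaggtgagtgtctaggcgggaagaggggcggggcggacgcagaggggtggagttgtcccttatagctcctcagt
Mrpl42, chr10:95501950-95502099, minus strand: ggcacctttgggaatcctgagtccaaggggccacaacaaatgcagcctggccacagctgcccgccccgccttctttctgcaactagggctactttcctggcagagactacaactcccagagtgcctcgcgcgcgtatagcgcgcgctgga
Mrps25, chr6:92184024-92184173, minus strand: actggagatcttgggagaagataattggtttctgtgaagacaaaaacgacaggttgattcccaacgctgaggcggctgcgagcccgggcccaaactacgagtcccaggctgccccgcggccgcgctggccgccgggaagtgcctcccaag
The stretch of Mrpl33 holds the NRF1 word close to its RefSeq start, that of Mrpl52 a YY1 and an ETS word, and those of Mrps36, Mrpl42 and Mrps25 none of the 4 words. The counted gene of Mrpl33 begins upstream of its stretch, at chr5:31596935, so its counts may include transcripts from another start. Outside the printed stretch, the 300 bases searched also hold an ETS word for Mrpl33, another for Mrpl52 and a YY1 word for Mrpl42. In the comparison of both I/R groups Mrpl33 and Mrpl52 were higher in the knockout and the other 3 lower. With 5 sequences this is a description of the letters beside the values.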

How the data were processed

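RNA of kidney cortex was sequenced by the authors in 12 libraries. The deposited values are raw counts per Ensembl gene, and the submitters' processing notes name HISAT2 2.0.4 and mm10. The counting program, annotation and strand setting are not given in the sources used here. Symbols, lengths and coordinates came from GENCODE M21 (GRCm38). Groups followed the labels, and Ctrl library 3 was placed by the name of its column, as the titles number 1, 2 and 4.

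Each comparison was fitted to its 6 libraries, and the interaction to all 12, with edgeR 4.0.16 (R 4.3.3) after filterByExpr and TMM. Alternatives were DESeq2 1.42.0, total counts, no filter, at least 10 counts in every library, the replicate block, one fit, sex as a covariate, and omission of the Xist libraries and of each library. The code was tested on simulated data. Members and lists were chosen with earlier results of these data known. Named genes are the 5 called members with the largest rise and fall per comparison (3 in the interaction), the 3 highest and lowest per subunit and length, and a fixed list of 15 members and 9 other genes. Further genes were named after their values were seen.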

Additional observations from a re-analysis of the deposited data

Results flagged for a closer look

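For 7 named members the change after I/R in the knockout differed from that in the control by the interaction term of the fit to all 12 libraries. On the log2 scale the interaction was -0.97 for Mrps36, -0.88 for Mrpl42, -0.65 for Mrps21, -0.53 for Mrps25, -0.45 for Mrps15, 0.47 for Mrps30 and 0.93 for Mrpl33. Sex differs between Ctrl libraries 1 and 2 and the other 10, and its part in these values cannot be told apart in that fit. Without those 2 libraries, with the lone remaining Ctrl library assumed to vary like the other groups, Mrpl42 was at -0.82 and still called. The other 6 were not called and kept their sign, at -0.73 for Mrps36, -0.55 for Mrps21, -0.58 for Mrps25, -0.42 for Mrps15, 0.46 for Mrps30 and 0.74 for Mrpl33. Mrps36, Mrpl42, Mrps21 and Mrpl33 were called without each single library in turn, with ranges of -1.11 to -0.85, -1.01 to -0.75, -0.75 to -0.57 and 0.73 to 1.09. The call of Mrps30 was lost without any of 8 of the 12 libraries, namely Ctrl library 2 or 3, PT-KO library 1 or 4, Ctrl+I/R library 1 or 4, or PT-KO+I/R library 2 or 4. The calls of Mrps25 and Mrps15 were lost in 9 and 10 of the 12 omissions. Mrps25 shares 69.8% of its exon bases with Nr2c2, whose interaction was 0.63 (adjusted p = 0.00193), opposite in sign. With 3 libraries per group, no test for outlying libraries was made.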

How the results depend on the processing

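For I/R in controls (4 higher, 0 lower), DESeq2, at least 10 counts in every library and the replicate block each called 1 lower, one fit to all 12 libraries 3 lower, and sex as a covariate 1 higher and 2 lower. Without the 2 libraries that carry Xist 1 was higher. The median of -0.02 became 0.0969 by total counts and -0.148 without the Xist libraries. Leaving out 1 library gave 0 to 3 higher and 0 to 4 lower, with medians of -0.0665 to 0.0623. For the knockout without I/R the replicate block called 2 higher, and the median of 0.05 became -0.0705 by total counts and -0.0812 without the Xist libraries. Leaving out 1 library gave 0 to 2 higher and 0 to 1 lower, with medians of 0.0122 to 0.124. For the knockout after I/R (6 higher, 14 lower) total counts gave 2 and 34 at a median of -0.30, no filter 8 lower, and the replicate block 1 higher, Mrps18b, and 0 lower. In that block both groups have only the library numbers 2 and 4 in common, so few degrees of freedom remain for the spread. Leaving out 1 library gave 3 to 6 higher and 6 to 14 lower, with medians of -0.143 to -0.0716. The log2 fold changes there of Mrpl11 (0.02) and Mrps18a (0.06), neither called, became -0.184 and -0.147 by total counts. Mrpl11 was at -0.00627 with at least 10 counts in every library and at -0.0382 to 0.0949 with 1 library left out, and Mrps18a at -0.0109 in the replicate block and at -1.49e-05 to 0.0957 with 1 library left out. For I/R in the knockout the counts stayed within 1.5 times under each alternative, with 6 to 11 higher, 20 to 28 lower and medians of -0.197 to -0.0624 when 1 library was left out. In the interaction (2 higher, 8 lower) total counts gave 1 and 19, no filter 1 and 5, the replicate block 4 lower, and both sex alternatives 1 and 1. Leaving out 1 library gave 1 to 4 higher and 4 to 15 lower, with medians of -0.207 to -0.0511. Total counts moved the median of all genes to 0.106 for I/R in controls, -0.135 for the knockout without I/R, -0.21 for the knockout after I/R and -0.104 in the interaction.

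The ratio of large to small subunit sums, divided by its mean over the libraries, was 1.01 for Ctrl, 1.003 for PT-KO, 1.01 for the I/R controls and 0.974 for the I/R knockouts. Leaving out 1 library gave 1.003 to 1.018, 1.001 to 1.004, 1.004 to 1.021 and 0.965 to 0.989. By medians over members PT-KO and the I/R knockouts were both at 0.995, so that the lower ratio of the latter was not seen. The labels do not say whether replicate numbers pair the libraries. Over 12 pairs with the same number the median correlation of deviations from the group means was -0.0258 (range -0.2152 to 0.2354), and 1 was over 0.1. With group means of 3 libraries these values cannot decide whether libraries of the same number share a batch. Why the alternatives moved these values was not tested.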
